A study of Mus musculus with 8 samples.

Results

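The regions described here are the open chromatin peaks at the ends of isolated long non-coding RNA (lncRNA) genes in mouse embryonic stem cells. An lncRNA gene on chromosomes 1 to 19 counted as isolated when its outer bounds lay 10 to 100 kb from the nearest protein-coding gene. A peak belonged to the set when its centre lay within 1 kb of an outer end of such a gene. This rule gave 1004 peaks, or 1.33% of the 75462 peaks on these chromosomes, at 830 of 3488 isolated lncRNA genes. The whole list held 76996 peaks. It carries positions on GRCm38 with no height, read count or value per sample, so its depth is unknown and no value below has a replicate error. Intervals are exact 95% binomial intervals and cover the counting of genes or peaks only.

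The peaks came from ATAC-seq, which inserts sequencing adapters into accessible DNA with Tn5 transposase, in 8 samples of RHKI cells. This line derives from E14Tg2a embryonic stem cells and carries an HA-Rnaseh1 knock-in, which control and treated samples share. All grew in 2i/LIF medium, 4 as controls and 4 with doxycycline (Dox) at 500 ng/ml over 48 h. The labels do not say whether replicates were separate cultures. The study set Dox against control samples, but 1 peak list stands for both groups, so that comparison was not made here.

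Long non-coding RNAs are transcripts without a long open reading frame. Most are made by RNA polymerase II from promoters that open like those of coding genes. Several act in the nucleus on nearby genes, and others serve as hosts from which small nucleolar RNAs or microRNAs are cut. A promoter close to a coding gene can share that gene's open region, and genes placed well apart from coding genes avoid this overlap. RNA was not measured here, so a peak at an lncRNA gene does not show that the gene was transcribed.

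The start windows of 7 of these genes are printed to show the sequence that lay open. Each runs from 250 bases before the transcript start to 50 bases after it (RefSeq, GRCm38.p6), and capitals mark the bases inside a listed peak. The first 3 are Snhg genes, a family named as hosts of small nucleolar RNAs, Miat and Platr22 are lncRNA genes known from neurons and from stem cells, A630089N07Rik holds the widest peak of the set, and Gm32796 is 1 of 2 genes with the most peaks. Miat and Platr22 were added after their values were seen.
Snhg20 (chr11:117076533-117076832, plus strand): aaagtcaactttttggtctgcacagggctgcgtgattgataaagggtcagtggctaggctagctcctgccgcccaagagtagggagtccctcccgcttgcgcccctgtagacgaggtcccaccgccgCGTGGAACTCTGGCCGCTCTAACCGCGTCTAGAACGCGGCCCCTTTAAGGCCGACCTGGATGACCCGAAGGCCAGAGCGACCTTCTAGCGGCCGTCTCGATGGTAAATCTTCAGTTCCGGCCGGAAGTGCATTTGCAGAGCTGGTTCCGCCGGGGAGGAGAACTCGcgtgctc
Snhg11 (chr2:158375463-158375762, plus strand): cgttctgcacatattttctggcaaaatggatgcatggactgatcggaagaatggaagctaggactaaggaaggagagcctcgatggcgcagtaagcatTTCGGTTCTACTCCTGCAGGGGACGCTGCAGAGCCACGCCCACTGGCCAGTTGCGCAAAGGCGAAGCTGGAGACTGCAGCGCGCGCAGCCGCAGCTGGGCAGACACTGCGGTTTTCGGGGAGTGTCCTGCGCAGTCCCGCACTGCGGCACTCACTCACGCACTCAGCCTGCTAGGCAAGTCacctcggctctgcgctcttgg
Snhg17 (chr2:158361473-158361772, minus strand): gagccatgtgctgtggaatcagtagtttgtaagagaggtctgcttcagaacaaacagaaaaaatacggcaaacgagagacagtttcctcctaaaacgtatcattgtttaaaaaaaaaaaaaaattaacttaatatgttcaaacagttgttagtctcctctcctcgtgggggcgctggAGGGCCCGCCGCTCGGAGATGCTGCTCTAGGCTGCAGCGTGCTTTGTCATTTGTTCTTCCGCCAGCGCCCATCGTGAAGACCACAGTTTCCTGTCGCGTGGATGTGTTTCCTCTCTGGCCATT
Miat (chr5:112228899-112229198, minus strand): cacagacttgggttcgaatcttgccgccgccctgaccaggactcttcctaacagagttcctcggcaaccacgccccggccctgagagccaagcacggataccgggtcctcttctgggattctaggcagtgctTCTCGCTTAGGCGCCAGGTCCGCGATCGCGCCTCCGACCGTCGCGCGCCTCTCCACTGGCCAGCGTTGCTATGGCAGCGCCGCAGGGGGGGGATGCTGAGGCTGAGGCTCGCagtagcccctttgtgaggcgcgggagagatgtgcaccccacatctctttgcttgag
Platr22 (chr1:136695961-136696260, plus strand): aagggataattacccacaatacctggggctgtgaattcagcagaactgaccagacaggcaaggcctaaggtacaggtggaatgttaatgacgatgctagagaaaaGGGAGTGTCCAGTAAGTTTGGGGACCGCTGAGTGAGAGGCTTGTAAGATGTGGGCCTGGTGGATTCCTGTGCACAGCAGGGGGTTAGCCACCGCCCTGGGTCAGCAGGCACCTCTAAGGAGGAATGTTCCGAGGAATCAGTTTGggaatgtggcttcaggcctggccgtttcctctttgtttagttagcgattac
A630089N07Rik (chr16:98082390-98082689, minus strand): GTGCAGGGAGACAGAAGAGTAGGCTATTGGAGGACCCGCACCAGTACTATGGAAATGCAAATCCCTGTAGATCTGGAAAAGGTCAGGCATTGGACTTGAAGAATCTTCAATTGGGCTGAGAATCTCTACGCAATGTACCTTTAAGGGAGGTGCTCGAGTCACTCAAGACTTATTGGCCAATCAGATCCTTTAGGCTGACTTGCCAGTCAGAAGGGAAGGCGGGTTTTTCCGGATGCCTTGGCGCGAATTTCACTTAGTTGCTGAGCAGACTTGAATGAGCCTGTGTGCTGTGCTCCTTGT
Gm32796 (chr16:29972610-29972909, plus strand): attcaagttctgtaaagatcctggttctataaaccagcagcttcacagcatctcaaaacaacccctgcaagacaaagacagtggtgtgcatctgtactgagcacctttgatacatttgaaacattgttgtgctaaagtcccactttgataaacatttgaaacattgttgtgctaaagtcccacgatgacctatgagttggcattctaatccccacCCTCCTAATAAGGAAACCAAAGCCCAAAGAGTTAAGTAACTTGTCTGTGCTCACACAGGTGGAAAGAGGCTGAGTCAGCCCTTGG

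These windows range widely in base composition. The window of Snhg20 had 61.0% GC and 25 CpG dinucleotides, with 0.896 of the CpG count expected from its C and G content. Miat had 64.3% GC and also 25 CpG, and Snhg11 had 60% GC and 21 CpG. Snhg17 had 47.0% GC with 14 CpG. Platr22 had 52.0% GC and 6 CpG. The window of Gm32796 had 43.0% GC and a single CpG (1), and it holds the letters TATAAA. The window of A630089N07Rik lay wholly inside its peak and holds CCAAT and the octamer ATTTGCAT, counting both strands.

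Peaks were found at an end of 830 of the 3488 isolated lncRNA genes, or 23.8% (22.4 to 25.2%). Over all 12322 lncRNA genes on these chromosomes the share was 31.6%, and over 20558 protein-coding genes it was 62.7%. Of lncRNA genes under 10 kb from a coding gene, 1056 of 2334 (45.2%, 43.2 to 47.3%) had a peak at an end. Of those that overlap a coding gene, 1777 of 4469 (39.8%, 38.3 to 41.2%) had one. When peaks that also lie within 1 kb of a coding gene end were left out, these shares became 24.5% (22.8 to 26.3%) and 23.6% (22.4 to 24.9%), beside 23.8% for the isolated genes, which by rule have no such peaks. All genes stayed in these counts, so a gene whose only peaks lay at coding gene ends counted as having no peak. That can lower the shares of the classes near coding genes but not that of the isolated genes. Beyond 100 kb the share was 11.4% (232 of 2031, 10.1 to 12.9%). The differences between these classes were not tested.

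**Figure D1:**
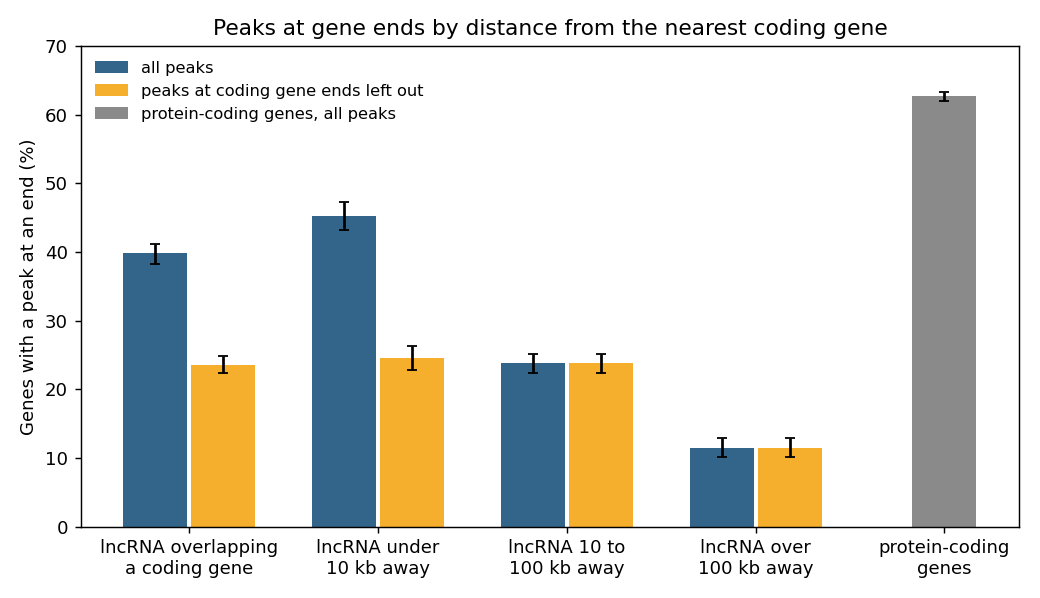
Share of genes with a peak centre within 1 kb of an end (y axis, percent) by class of gene (x axis), with exact 95% binomial intervals as error bars. The blue bar of the isolated class stands at 23.8%. With peaks at coding gene ends left out (yellow), the classes under 10 kb and overlapping a coding gene stand at 24.5% and 23.6%. Genes whose only peaks lie at coding gene ends stay in the yellow bars as genes without a peak.

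Within the isolated genes the share was lower at greater distance from coding genes. It was 27.5% (250 of 908, 24.6 to 30.6%) from 10 to under 20 kb, 23.6% (359 of 1518, 21.5 to 25.9%) from 20 to under 50 kb and 20.8% (221 of 1062, 18.4 to 23.4%) from 50 to 100 kb. The intervals of the first and the last class do not overlap, while each overlaps that of the middle class. Genes with a peak lay a median of 30055 bp from their coding neighbour and those without 34397 bp. Genes with curated NR transcripts had a peak more often (250 of 788, 31.7%, 28.5 to 35.1%) than genes with predicted XR transcripts alone (580 of 2700, 21.5%, 19.9 to 23.1%). Of the 90 genes with a symbol other than a provisional Gm, LOC or Rik name, 39 (43.3%, 32.9 to 54.2%) had one. Chromosome 14 had the lowest share (26 of 158, 16.5%, 11.0 to 23.2%) and chromosome 7 the highest (58 of 182, 31.9%, 25.2 to 39.2%).

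Most open genes had a peak at 1 end. Of the 3488 genes, 650 had 1 peak of the set, 152 had 2, 26 had 3 and 2 had 4. Among the 1511 genes of at least 10 kb, where the end windows lie well apart, 301 (19.9%, 17.9 to 22.0%) had peaks at 1 end and 27 (1.79%, 1.18 to 2.59%) at both. Coding genes of that length had 62.4% and 8.93%. Over all lengths 117 isolated genes had both ends open, but in 39 short ones a peak lay in both end windows at once. Of the peaks, 970 lay at the ends of 1 isolated gene, 32 at the ends of 2 and 2 at the ends of more.

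Strand was known for 2669 of the isolated genes, through the RefSeq start windows, and in these the open end was mostly the transcript start. A peak lay at the start of 481 genes (18%, 16.6 to 19.5%) and at the far end of 254 (9.52%, 8.43 to 10.7%). In genes of at least 10 kb the counts were 207 of 1221 at the start (17.0%, 14.9 to 19.2%) and 84 at the far end (6.88%, 5.52 to 8.45%). There 184 had the start alone, 61 the far end alone and 23 both. Among coding genes of that length 68.9% had a peak at the start and 12% at the far end. The far end carried a peak in 23 of the 207 long lncRNA genes with an open start (11.1%, 7.18 to 16.2%) and in 61 of the 1014 others (6.02%, 4.63 to 7.66%), whose intervals overlap.

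Around the transcript start the peaks formed a narrow maximum. In the 1 kb bins just before and just after the start there were 10.0 and 10.5 peak centres per 100 genes. Bins 10 to 20 kb away on both sides averaged 4.56, so these 2 bins held 2.19 and 2.31 times as many. At the far end the bin inside the gene held 6.03 and the bin beyond it 4.72 per 100 genes, beside 4.79 in the bins 10 to 20 kb away. In genes of at least 10 kb the far-end bins held 3.85 and 3.69, and the other bins within 10 kb of the far end held 2.54 to 4.42. The bins 10 to 20 kb before a far end include starts of genes of that length, so they are no clean background for it. Whether far ends differ from their surroundings was not tested. For centre positions, each pair of a gene and a peak was counted once, at the nearer end of the gene. Of the 537 pairs placed at a start, 268 (49.9%) had the centre within 250 bp of it. The median centre of the 537 was at 0 bp.

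**Figure D2:**
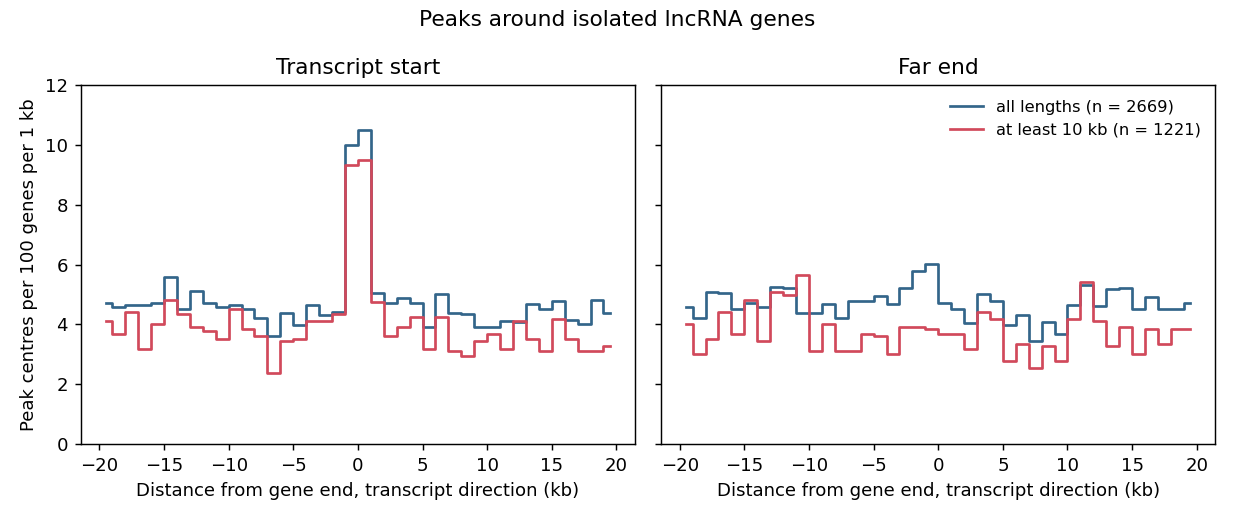
Peak centres per 100 genes in 1 kb bins (y axis) against the distance from the transcript start (left) or the far end (right) in the direction of transcription (x axis, kb), for the 2669 isolated lncRNA genes with known strand and the 1221 of at least 10 kb. The 2 bins at the start reach 10.0 and 10.5, and the far-end bins of all genes stand at 6.03 and 4.72.

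Peaks of the set were as narrow as peaks elsewhere. The narrowest was 92 bp and the widest 803 bp, and the median width was 130 bp (quartiles 114 and 153 bp). All other peaks on these chromosomes had the same median of 130 bp (quartiles 115 and 156 bp), and peaks at coding gene ends had 134 bp (116 and 165 bp). Widths over 200 bp were found in 82 peaks of the set (8.17%, 6.55 to 10.0%), in 9.22% of all others and in 15.0% (14.4 to 15.5%) of peaks at coding gene ends. At lncRNA starts 8.60% were that wide, and at far ends that are no start 5.67% (3.13 to 9.33%). Within 10 kb of its centre a peak of the set had a mean of 1.64 other peaks, beside 1.75 for peaks at coding ends and 1.58 for all peaks. No other peak lay within 10 kb of 27.4% of the set, beside 19.9% at coding ends and 27.7% of all peaks.

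Where strand was known, the widest peaks lay at starts and at far ends. Over the whole set, 535 peaks lay at a start and 247 at a far end that is no start. The peak of 803 bp (chr16:98081974-98082776) covered the start of A630089N07Rik, a gene of 19928 bp that lies 45755 bp from B230307C23Rik. B930092H01Rik, 78516 bp from the corepressor gene Tle3, had wide peaks at both ends, of 520 bp at the start (chr9:61293282-61293801) and 552 bp at the far end (chr9:61259382-61259933), and 8 peak centres within its 34583 bp. Peaks of 506 bp near the start of Gm36486, 476 bp over that of Gm33026 and 469 bp over that of 4930555B11Rik followed. Of these, Gm33026 lay 24839 bp from Hand1, a heart and trophoblast transcription factor gene that had no peak at its own ends. A peak of 601 bp lay at the far end of Gm40113. The others of the 10 widest, at LOC108168428 (539 bp), Gm35607 (532 bp) and Gm36744 (528 bp), belonged to genes without a listed strand. Gm36744 lay 20601 bp from Nr5a1, which encodes a steroidogenic nuclear receptor.

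Of the 10 isolated Platr genes, named as pluripotency-associated transcripts, 6 (60%, 26.2 to 87.8%) were open at an end. The share was 23.8% over all isolated genes and 43.3% over those with a given symbol, which lies inside this interval. The list was known to hold stem cell transcripts when it was drawn up, so its share is no independent evidence. Platr14 (chr2:104559184-104571429) had a peak of 143 bp that ended on the first base of the gene. The peak of 144 bp at Platr22 (chr1:136696211-136725728) ended 2 bp before the first base, as the printed window shows. Platr26 had a peak of 167 bp centred 303 bp before its start, and Platr6 one of 162 bp centred 398 bp inside. At Platr27 a peak of 112 bp covered the upper end, and Platr4 had 2 peaks at its upper end, 1 of them (133 bp) over the end itself. Each of the 4 with known strand was open at the start alone. The other 4, Platr5, Platr7, Platr11 and Platr30, had their nearest peak centre 1086, 1535, 2180 and 1400 bp from an end, outside the 1 kb limit.

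All 4 isolated Snhg genes had a peak at the start (exact 95% interval for 4 of 4, 39.8 to 100%). Over isolated genes with known strand 18% had a peak at the start, and over all isolated genes 23.8% had one at an end. Of isolated genes with a given symbol 43.3% had a peak at an end, which lies inside the interval. The family is named for hosting small nucleolar RNAs, many of which guide the modification of ribosomal RNA. The annotation used here places such genes in Snhg5, Snhg11 and Snhg17, while Snhg20 holds the microRNA gene Mir6516. At Snhg20, Snhg11 and Snhg17 peaks of 166, 181 and 123 bp covered the start, Snhg17 had another of 112 bp centred 434 bp inside, and at Snhg5 a peak of 143 bp was centred 298 bp before it. Snhg17 and Snhg11 are neighbours on chromosome 2 and both also had a peak near the far end, of 130 and 137 bp. Over all 28 isolated lncRNA genes that contain an annotated small nucleolar RNA gene, 6 (21.4%, 8.30 to 41.0%) had a peak at an end, beside 23.8% for the whole class. 

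MicroRNA hosts were mixed. Of 27 isolated lncRNA genes that contain a microRNA gene, 9 (33.3%, 16.5 to 54.0%) were open at an end, and the interval includes the 23.8% of the whole class. The neuronal microRNA miR-9 is made from 3 loci, and each lies in an isolated lncRNA gene. Its mature form is printed with the seed, bases 2 to 8, in capitals, because the 3 hosts carry the same product and differ in their peaks.
mmu-miR-9-5p: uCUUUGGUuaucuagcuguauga
Mir9-3hg (chr7:79500026-79534403) had a peak of 144 bp centred 612 bp before its start and 1 of 111 bp centred 952 bp beyond its far end. C130071C03Rik, the host of Mir9-2, had a peak of 99 bp centred 422 bp before its start. Gm3764, the host of Mir9-1, had none at its ends and 2 peak centres inside. Mir9-3hg was named by the list, and the other two hosts were chosen after their values were seen. Lincmd1, which holds the muscle microRNA genes Mir206 and Mir133b, had no peak at an end and none inside. The same was true of Mir1a-1hg, which holds Mir1a-1, another muscle microRNA gene, and Mir133a-2. Mir17hg, known as the host of an oncogenic cluster, spans 2339 bp in the annotation used here and holds only the microRNA gene Mir92-1. Its nearest peak centre lay 2127 bp from the lower end of these bounds, which need not be the start of the whole host. Mir124a-1hg had a peak of 115 bp centred 714 bp outside its lower end.

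Among 13 isolated genes of a list of well-studied lncRNAs, 7 had a peak at an end (53.8%, 25.1 to 80.8%), and the interval includes the 43.3% of all isolated genes with a given symbol. Tunar, a conserved lncRNA of stem cells and neurons, had 1 peak of 95 bp centred 141 bp inside its start, and the next peak before the gene was centred at -14222 bp from the start. Miat, a nuclear RNA best known from neurons, had a peak of 112 bp whose near edge lay 7 bp before its first base. At Malat1, an abundant RNA of nuclear speckles, a peak of 135 bp was centred at -670 bp from the start and the next at -1070 bp. Norad, an RNA that binds Pumilio proteins, had a peak of 117 bp over its upper end, and a peak of 126 bp covered the lower end of Pvt1, 47624 bp from Myc. Pvt1 spans 222230 bp and held 11 peak centres. Trp53cor1, a p53 target also called lincRNA-p21, had 1 peak at the lower and 2 at the upper end, and Bvht, a cardiac lncRNA on chromosome 18, likewise had 1 and 2.

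The 6 without a peak at an end were Carmn, Eprn, H19, Halr1, Ptgs2os2 and 2610307P16Rik. Carmn, a smooth muscle and cardiac lncRNA, Eprn, which is known from cells leaving the naive state, and 2610307P16Rik had a peak centre just past the limit, at 1026, 1016 and 1080 bp. H19, an imprinted RNA of the placenta and fetal tissues, and Ptgs2os2, an inflammatory lncRNA, had none within 33120 and 33618 bp. Halr1 had its nearest peak centre 2369 bp from an end. The limit of 1 kb therefore decided several of these calls, and 77 pairs of a gene end and a peak lay in the last 100 bp inside it against 85 in the first 100 bp outside it. The pairs nearest to the limit were Gm36486 and Gm31740 inside it, at 998 and 997.5 bp, and Gm33940 and Gm17619 outside it, at 1000.5 and 1003.5 bp. The gap limits fell between Gm41853 (9978 bp) and Gm38944 (10039 bp), and between Gm4258 (99838 bp) and A430048G15Rik (100183 bp).

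**Figure D3:**
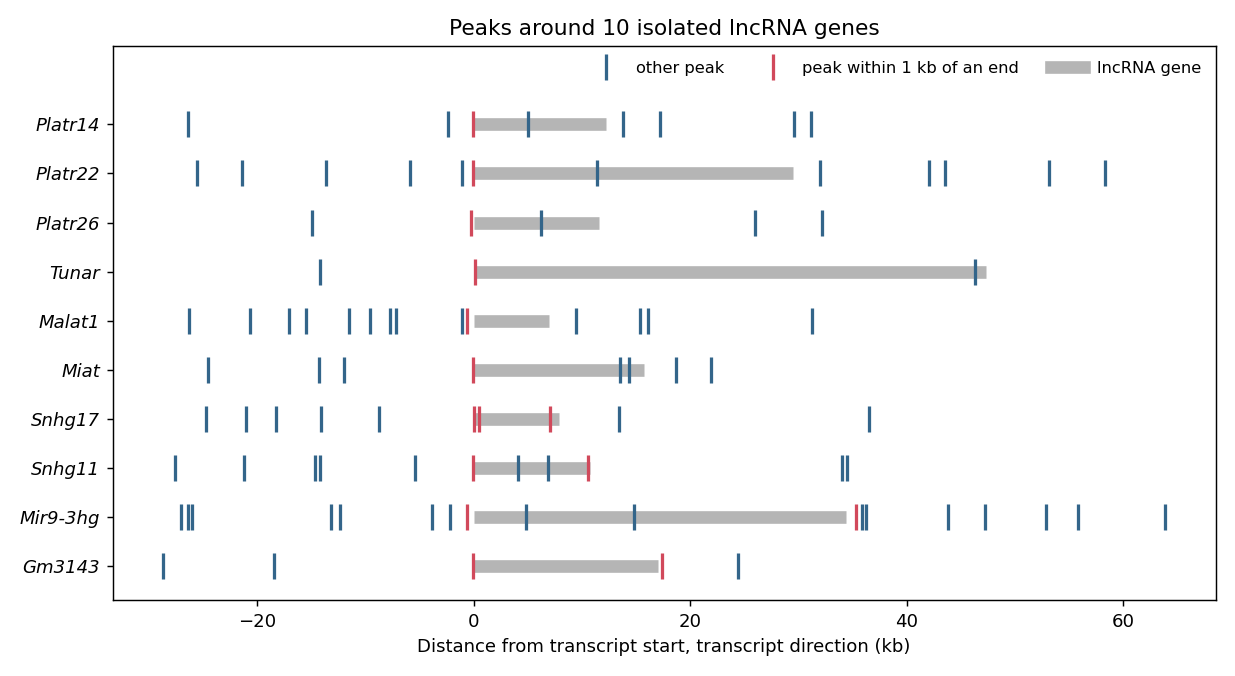
Peaks at 10 isolated lncRNA genes with known strand, from 30 kb before each gene to 30 kb beyond it, by distance from the transcript start in the direction of transcription (x axis, kb). Grey bars are the genes, red ticks the centres of peaks within 1 kb of an end and blue ticks other peaks. All 10 genes drawn have a red tick at the start, and Snhg17, Snhg11, Mir9-3hg and Gm3143 also have 1 at the far end. Genes with known strand and no peak at an end, such as Platr5, Platr7 and Platr30, are not drawn. Over all isolated genes with known strand, 18% had a peak at the start.

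The genes with the most peaks were Gm32796 and Gm33622, with 4 each. Gm32796, 83032 bp from the Notch target gene Hes1, had a peak of 350 bp over its start and 3 of 134 to 165 bp around its far end. Gm33622, 25117 bp from Zfp64, had 2 at each end. Genes with 3 included A230028O05Rik, with all 3 at its start, and Bloodlinc, an erythroid lncRNA of 1470 bp near Slc4a1, with 2 of its peaks in the window of the lower end and all 3 in that of the upper end. Gm11729 is shorter still, at 980 bp, with all 3 peaks in the window of its start and 2 of them also in that of its far end.

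Long genes open at both ends were led by Gm17767, of 87214 bp, with peaks of 111 bp near the start and 140 bp near the far end. Gm26562 (50924 bp) had peaks of 151 and 103 bp at start and far end and 10 peak centres inside. Gm32633, 47919 bp from the Kruppel-like factor gene Klf13, had 140 and 159 bp, and Gm34350, near the intermediate filament gene Synm, 163 and 115 bp. The start of Gm34350 shares its peak with the start of 4833412C05Rik on the opposite strand. The far-end peak of Gm34350, centred 873 bp beyond the gene, also lies at the far end of Gm39027. In all, 11 peaks lay at starts of 2 isolated lncRNA genes on opposite strands, with widths of 99 to 163 bp.

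The coding genes next to open lncRNA genes were themselves mostly open. The 830 genes with a peak had 722 different nearest coding genes, of which 550 (76.2%, 72.9 to 79.2%) had a peak at an end. Coding genes nearest only to lncRNA genes without a peak had one in 1172 of 1718 cases (68.2%, 66.0 to 70.4%), and all coding genes in 62.7%. The difference was not tested. Some coding genes had several open lncRNA neighbours, and those named next were chosen after their values were seen. Of the isolated lncRNA genes nearest to each, 3 of 3 were open at Cpsf6, 4 of 6 at Cstad and 3 of 7 at Tle3. Over all isolated lncRNA genes the share was 23.8%. Hmgb1, which encodes a chromatin protein, had 4 isolated lncRNA genes nearest to it, all 4 with a peak. Inhbb, which encodes an activin subunit, had 5, of which 4 were open. Of these 4, Gm33490 and Gm33575 have their starts at a shared peak of 106 bp. The same peak is the only one at LOC115487115, at its far end, so these openings are not separate.

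Near regulators of pluripotency, 8 of 16 isolated lncRNA genes (50.0%, 24.7 to 75.3%) were open at an end. For lineage regulators the count was 11 of 51 (21.6%, 11.3 to 35.3%), and the 2 intervals overlap. Over all isolated lncRNA genes the share was 23.8%, near that of the lineage neighbours and just under the interval of the pluripotency neighbours. The 16 genes lie next to only 8 pluripotency genes, and the 51 next to 25 lineage genes. They are therefore not independent draws, as the intervals assume. Both lists were chosen with earlier results of these data known, and no difference from the whole class was tested. Of the 3 isolated lncRNA genes nearest to Sox2, a core pluripotency factor gene, Gm3143 had a peak of 141 bp over its start and 1 of 149 bp beyond its far end, Gm34941 had 1 and Gm42205 had none. All 3 nearest to Tbx3, a naive pluripotency factor gene, had peaks (AW549542, Gm16063 and Gm16064), as did both nearest to Mycn, Gm35208 and Gm40271. None of the 3 nearest to the LIF receptor gene Lifr had one.

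Among neighbours of lineage genes, 3 of the 4 nearest to Hes1 had peaks. Gm36038, 18493 bp from the trophectoderm regulator gene Tfap2c, was open at both ends, with 416 bp near the start and 97 bp over the far end. Of the 5 nearest to Sox4 and the 3 nearest to Tbx5, none had a peak at an end. Of the 4 nearest to Sox9, a cartilage and gonad factor gene, only Gm30562 had one, and of the 3 nearest to Eomes, a mesoderm and trophoblast factor gene, only Gm33285. Single open genes also lay near Pax6 (Gm35946), Otx2 (Gm38660), Sox17 (Gm39586) and Foxd3 (Gm40211).

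Start windows of genes with a peak at the start had more G and C than those of genes without, a property the rule did not use. The peak centre lay within 1 kb of the outer end there, while the window spans 300 bp. The peak may therefore lie outside the window, and these values describe start windows rather than the bases inside peaks. For 473 isolated lncRNA genes with a peak at the start the median GC content was 51.0% (quartiles 47.0 and 55.3%), and for 2138 without it was 46.7% (42.3 and 50.7%). The CpG count relative to expectation had medians of 0.320 and 0.196. Coding genes with a peak at the start had medians of 61.7% GC and 0.775. Windows rich in CpG, with at least 55% GC and a ratio of at least 0.6, were few among isolated lncRNA genes, 49 in all. A peak lay at the start of 41 of these 49 (83.7%, 70.3 to 92.7%) and of 432 of the other 2562 (16.9%, 15.4 to 18.4%). CpG-rich starts with a peak included Miat, Snhg5, Snhg11, Snhg20, Mir9-3hg, Dancr and E130102H24Rik, while 2610307P16Rik was among the 8 without. The windows were not matched on any other property. How mapping or peak calling depends on GC content was not tested.

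**Figure D4:**
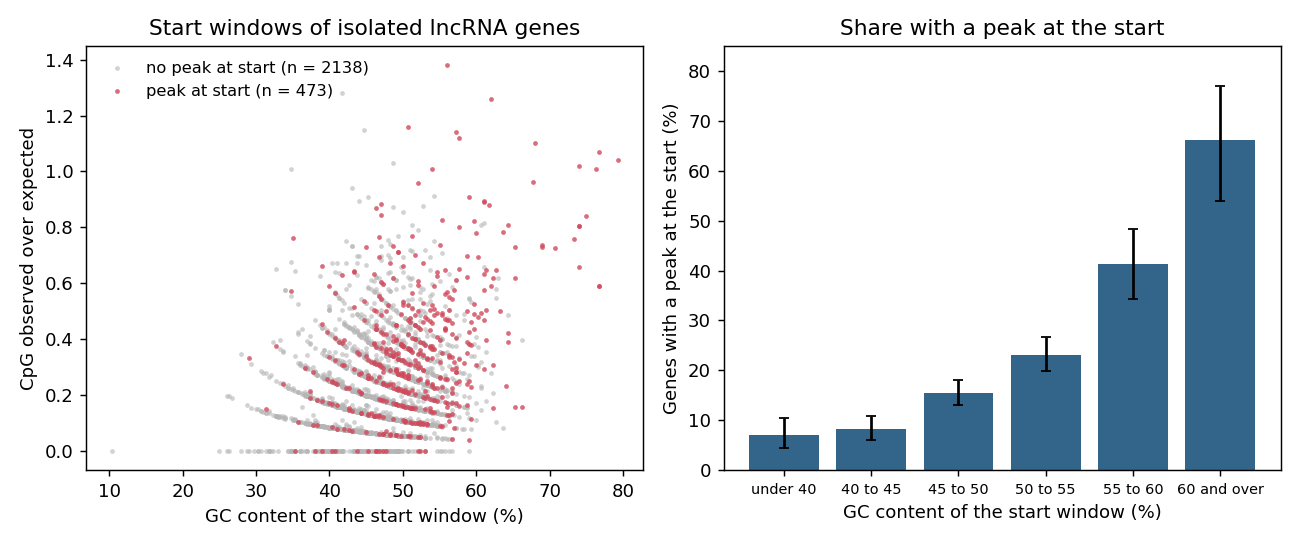
Left, the ratio of observed to expected CpG (y axis) against GC content in percent (x axis) of the 300 bp start windows of isolated lncRNA genes, with (red, n = 473) and without (grey, n = 2138) a peak at the start. Right, the share of genes with a peak at the start (y axis, percent, exact 95% binomial intervals) by GC content, which runs from 7.03% under 40% GC to 66.2% at 60% GC and over.

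The share of genes with a peak at the start was 7.03% (22 of 313) below 40% GC, 8.24% (46 of 558) from 40 to under 45%, 15.4% from 45 to under 50%, 23.1% from 50 to under 55%, 41.3% from 55 to under 60% and 66.2% (47 of 71, 54.0 to 77.0%) from 60%. Most open starts, 432 of 473, still lay outside the CpG-rich class, which held 8.67% of them and 65.0% of open coding starts. Widths were alike in both, with medians of 134 bp at 44 peaks of CpG-rich starts and 130 bp at 473 peaks of other starts.

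Motifs were searched in the same windows on both strands. Windows were again split by whether the gene had a peak at its start, even where that peak lay outside the window. GGGCGG, the core bound by SP and KLF factors, stood in 111 of 473 windows of genes with such a peak (23.5%, 19.7 to 27.6%). It stood in 135 of 2138 windows of genes without one (6.31%, 5.32 to 7.43%), beside 36.1% of all 23899 lncRNA and coding windows. This motif contains a CpG itself. CCAAT stood in 34.7% and 35.8%, beside 38.0% of all windows, and TATAAA in 15.0% and 18.1%, beside 14.4%. CACGTG stood in 7.82% (5.57 to 10.6%) and 4.96% (4.08 to 5.97%), beside 7.25%. The octamer ATTTGCAT, which POU factors bind, stood in 11 windows of genes with a peak at the start (2.33%, 1.17 to 4.12%). It stood in 2.01% of the others, beside 1.81%. TGACGTCA stood in 1.27% and 0.842%, beside 1.90%. The 2 longest motifs, GCGCATGCG followed by C and TGAAACTTC followed by C, stood in no window of a gene with a peak at the start, which allows up to 0.777%. They stood in 3 windows each (0.140%) of genes without one, beside 1.03% and 0.0628% of all windows. None of these motifs contains another one, and a match of letters is not a bound site.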

How the data were processed

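The deposited file is a list of 76996 peak positions (chromosome, start counted from 0, end), with 0 columns of values per sample. The authors made it with build GRCm38 and, in no stated order, deepTools 3.5.1, HOMER 4.11, SAMtools 1.16.1, Picard 2.10.9, Bowtie2 2.5.0 and Trimmomatic 0.39, per the submitters' processing notes. For tool roles, peak caller, threshold and pooling of samples, the entry is: not given in the sources used here. Dox and control samples were therefore not compared, as had been planned.

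Genes came from a RefSeq table of GRCm38.p6 with outer bounds. The 402 genes on scaffolds, patches or the mitochondrial genome were left out. The gap between an lncRNA gene and a coding gene is the number of bases between their bounds. Strand came from the RefSeq start windows, which were found for 2669 of 3488 isolated genes and for none of the 109 on chromosome 18. Composition and motifs used 1 window a gene, the one nearest the outer end, within 1 kb of it. The assignment of peaks was tested on simulated data, with open ends checked only in longer genes, whose end windows lie well apart. Shorter genes, among them those with overlapping end windows, were not checked for open ends. Members and gene lists were chosen with earlier results of these data known. Genes named are isolated lncRNA genes of 4 lists (Platr, Snhg, microRNA hosts, well-studied), those at the 10 widest peaks, the 10 with most peaks, the 10 longest open at both ends, and open ones nearest to pluripotency or lineage genes; some are given only in counts. Other lncRNA genes, such as Dancr, E130102H24Rik, C130071C03Rik, Gm3764, Lincmd1 and Gm42205, were chosen after their values were seen or stand at a limit of the rule. Calculations used Python 3.11.15, NumPy 2.4.6, pandas 2.3.3, SciPy 1.17.1 and matplotlib 3.10.9.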

Additional observations from a re-analysis of the deposited data

Results flagged for a closer look

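The same rule applied to chromosome X, which lies outside the set, found 15 peaks at ends of isolated lncRNA genes. They are given here because no comparison above uses them. They lay at 13 of 100 isolated lncRNA genes on X (13.0%, exact 95% interval 7.11 to 21.2%), among them 2010204K13Rik and 5730405O15Rik, against 23.8% on chromosomes 1 to 19. Chromosome Y held 1 such peak, at Gm33272, among 4 genes. The difference between X and the autosomes was not tested.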

How the results depend on the processing

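Of 49 values recomputed under 10 alternatives for the 5 main results, 29 stayed within the interval of the value reported (for the number of peaks, within 1.5 times) and 20 did not. The share of isolated genes with a peak at an end was 17.4% with a window of 500 bp, 33.0% with 2 kb, 12.9% with peaks wider than the list's median, 43.3% for given symbols and 31.7% for curated NR transcripts. The last alternative was chosen after seeing the data. In the same order, the number of peaks was 667, 1564, 484, 56 and 321, and the share of long genes open at both ends was 0.794%, 4.04%, 0.529%, 7.32% (3 of 41 genes) and 3.51%. The share of nearest coding genes with a peak was 69.9%, 84.1%, 52.6% and 84.6% in the first 4. Wider windows take in more peaks and wider peaks are fewer by construction. The cause of the differences for given symbols and NR transcripts was not tested. The median width was 132 bp for NR transcripts and 129 to 131 bp in the other alternatives. Other alternatives were an overlap alone, a lower limit of 20 kb and an upper limit of 50 kb. The last were genes of at least 2 kb and genes that overlap no other gene. None of these moved a result with an interval beyond it, and the number of peaks stayed within 1.5 times. In the same order that number was 1055, 701, 749, 881 and 734, beside 1004 in the main setting. No paired analysis was possible because the peak list holds no values per sample. Lack of a listed peak does not show closed chromatin, since depth and threshold are unknown. No strand was known for 109 genes on chromosome 18 and 710 elsewhere.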
